A study of Mus musculus with 12 samples.

Results

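The response of Trpm5-/- marginal zone B cells to antibody against IgM was described across all genes measured at 4 h of culture. It rests on 4 of the 12 libraries of the series, 2 from Trpm5-/- cells given 10 µg/mL of anti-IgM and 2 from unstimulated Trpm5-/- cells, and it covers the 10797 of 24346 gene symbols with at least 1 FPKM in at least 2 of the 12 libraries. FPKM are fragments per kilobase of transcript scaled to the mapped fragments, so levels are already corrected for transcript length and library depth. The other libraries, 2 each, are Trpm5-/- cells given 10 µg/mL of LPS, and wild-type cells given anti-IgM, given LPS or left unstimulated, all for 4 h. Both groups compared carry the Trpm5 deletion. The labels give neither the mouse strain, sex and age nor the extent of the deletion. Nothing in them ties the 2 replicates of a group to separate mice or cultures, so p-values measure spread between libraries that could be technical only.

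Marginal zone B cells are innate-like B cells of the spleen that face blood-borne antigens and carry high levels of surface IgM and of the complement receptor CD21. Cross-linking of surface IgM activates the kinases LYN, SYK and BTK and phospholipase C gamma, which releases calcium from the endoplasmic reticulum and turns on calcineurin and NFAT, the Ras to MAP kinase route and NF-kB. Immediate early factors of the EGR, NR4A and AP-1 families appear first, and genes of cell growth follow. TRPM5 is a cation channel opened by intracellular calcium that passes sodium and so depolarizes the membrane, best known from taste cells.

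Trpm5 itself was listed at 0 in both Trpm5-/- anti-IgM libraries and at 0.0236 and 0.0184 FPKM in the unstimulated Trpm5-/- libraries. In wild-type cells it stood at 0.059 and 0.0241 FPKM with anti-IgM and at 0.0196 and 0.21 FPKM without. It lay under the minimum of 1 FPKM in each of these libraries and was not tested, so its level does not check the genotype labels.

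The deposited FPKM summed to 677062 and 661770 in the Trpm5-/- anti-IgM libraries, against 580431 and 586021 in the unstimulated Trpm5-/- libraries. Depth was estimated relative to the first unstimulated Trpm5-/- library, from the commonest ratio of a gene's values where both lay under 1 FPKM. It ranged over 0.78 to 1.281 across the 12 libraries, and read totals were not used here. Replicate libraries correlated across tested genes at r = 0.9778 for anti-IgM and r = 0.9665 without stimulation. The 12 B cell markers listed summed to 3456 and 3375 FPKM with anti-IgM, against 7838 and 7903 FPKM without. The 24 marginal zone markers summed to 1104 and 1132 FPKM, against 1497 and 1515 FPKM, and none of the 24 was at 0 in all 4 libraries. In bulk RNA, fewer cells of a type and less RNA per cell cannot be told apart. Markers of T cells summed to at most 2.73 FPKM, those of NK cells to at most 4.09 FPKM, those of neutrophils to at most 5.66 FPKM and those of platelets to at most 1.47 FPKM in any of the 4 libraries. The NK genes Ncr1, Klrb1c, Klra8, Gzma, Gzmb and Eomes, the neutrophil genes Mpo, Elane and Camp, and the platelet gene Gp1bb were listed at 0 in all 4.

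Anti-IgM changed the level of 5386 of the 10797 genes, 49.9% of those tested (limma on log2(FPKM + 1), 2-sided, Benjamini-Hochberg adjusted p under 0.05). Of these 2899 rose (26.9% of tested genes) and 2487 fell (23.0%). The median absolute log2 difference of the called genes was 0.63, and 2371 of them changed by less than 1.5-fold. A rise of at least 2-fold was called for 440 genes (4.08%) and a fall of at least 2-fold for 672 (6.22%). Past 4-fold there were 18 rises and 85 falls, and these included 8 small RNA genes. The 2 and 2 libraries did not overlap in any of the 5386 called genes, and they did not overlap in 8183 (75.8%) of all tested genes. The median log2 difference over all tested genes was -0.001, which is the level against which the medians of gene groups are set in what follows.

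Rises were commoner among highly expressed genes. When tested genes were ranked by mean FPKM and divided into 3 groups of 3599, rises made up 7.50% of the lowest group (means of 0.22 to 7.0 FPKM), 21.6% of the middle group and 51.5% of the highest (29.4 to 18041 FPKM). Falls made up 24.3%, 27.0% and 17.8% of the same groups. The genes that rose had a median transcript length of 2449 bases and the genes that fell one of 2908 bases, against 2715 bases for all tested genes. The part that the larger FPKM sum of the anti-IgM libraries has in these shares was not tested. With quantile normalization, which gives the libraries one distribution, 2797 genes rose and 2307 fell.

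The 10 named genes with the largest rises were led by Egr2, a zinc-finger factor induced by antigen receptors, which lies on chromosome 10 at 67535475 to 67542188 on the plus strand (GENCODE M21, GRCm38). Egr2 stood at 169 and 157 FPKM in anti-IgM libraries of Trpm5-/- cells, against 26.5 and 23.6 FPKM in unstimulated ones, a log2 difference of 2.66 ± 0.11 (limma standard error; adjusted p = 8.05e-08). The transcriptional repressor Gfi1 followed at 34.6 and 35.2 FPKM, against 4.69 and 6.02 FPKM (2.51 ± 0.17, adjusted p = 1.03e-06). Mreg, which encodes melanoregulin, a protein of lysosome-related organelles, had 209 and 202 FPKM with anti-IgM and 37.7 and 37.1 FPKM without (2.43 ± 0.10). In all 3 genes both stimulated libraries stood several-fold above both unstimulated ones. Regulators of G proteins and small GTPases were among the 10. Rgs1, which speeds the shut-off of chemoattractant receptor signals, had 74.6 and 58.9 FPKM, against 14.6 and 11.1 FPKM. Rasgef1b, a guanine nucleotide exchange factor, had 327 and 324 FPKM, against 75.1 and 70.3 FPKM. Tagap, a GTPase-activating protein, had 55.5 and 51.3 FPKM, against 12.6 and 9.48 FPKM. Their log2 differences were 2.29, 2.15 and 2.19. Gng4, a G protein gamma subunit (log2 difference 2.35), the nuclear receptor Nr4a2 (2.13), Spp1, which encodes the secreted protein osteopontin (2.07), and Cd63, a tetraspanin of late endosomes (2.06), made up the rest. Cd63 varied most between replicates, with 44.8 and 46.6 FPKM with anti-IgM and 8.33 and 12.5 FPKM without (2.06 ± 0.30, adjusted p = 0.000268).

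Among genes that the naming rule admits, which leaves out small RNA genes, the largest falls were deeper than the largest rises. The 9 falls described here had log2 differences between -2.92 and -3.65. Icosl, the ligand of the costimulatory receptor ICOS on T cells, fell to 1.26 and 0.988 FPKM with anti-IgM, against 23.8 and 27.7 FPKM in unstimulated Trpm5-/- cells (-3.65 ± 0.17, adjusted p = 1.21e-07). Both stimulated libraries lay far below both unstimulated ones. Itgb7, the integrin subunit that pairs with alpha 4 or alpha E, had 1.88 and 1.47 FPKM with anti-IgM and 22.3 and 23.1 FPKM without. Ltb, the membrane-bound cytokine lymphotoxin beta, had 28.9 and 25.9 FPKM, against 221 and 243 FPKM. Rasgrp2, a calcium- and diacylglycerol-regulated exchange factor for Rap1, had 2.5 and 3.01 FPKM, against 36.2 and 35.9 FPKM (-3.31 ± 0.14). Dgka, a kinase that consumes diacylglycerol, had 12 and 11.6 FPKM, against 108 and 106 FPKM (-3.07 ± 0.08). Rasa3, a GTPase-activating protein for Rap1 and Ras, had 14.8 and 12.9 FPKM, against 115 and 108 FPKM (-2.92 ± 0.11). The remaining 3 were the acid phosphatase Acp5 (-3.09), the immunoglobulin superfamily gene Hepacam2 (-3.09) and the glycosyltransferase B3gnt8 (-3.08).

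**Figure D1:**
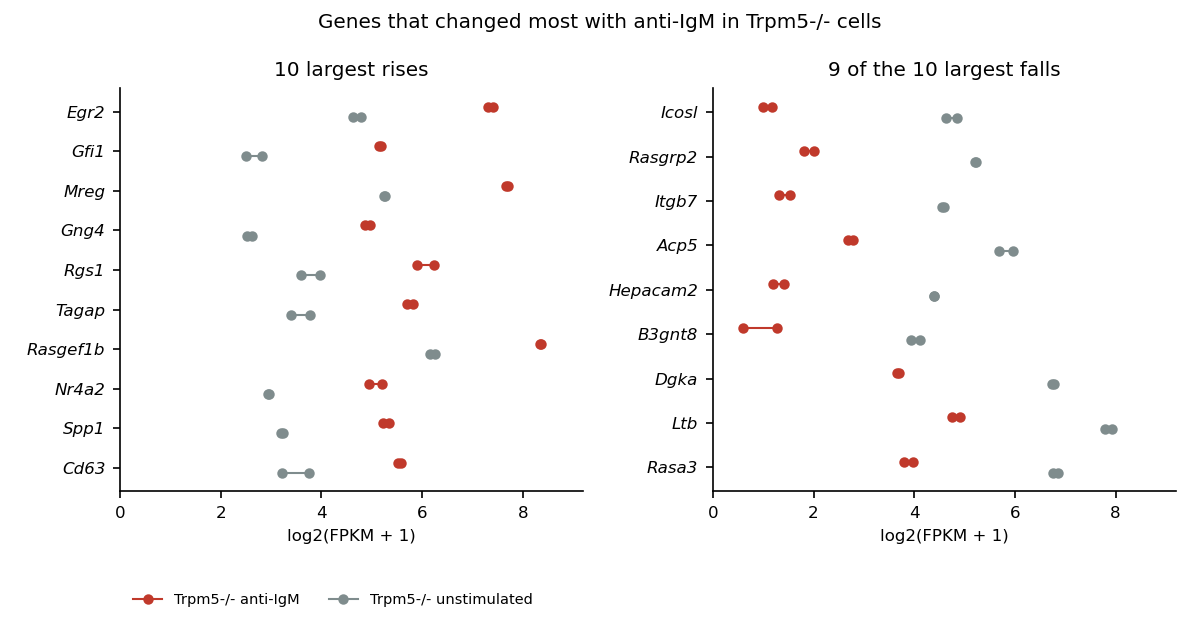
Levels of the 10 largest rises (left) and of 9 of the 10 largest falls (right) in Trpm5-/- cells, as log2(FPKM + 1) on the horizontal axis. Each point is 1 library, red for anti-IgM and grey for unstimulated, and a line joins the 2 libraries of a group; the stimulated and unstimulated libraries are separate for all 19 genes.

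Genes of the receptor itself and of its proximal signals mostly fell. Of 30 tested genes of B cell receptor proximal signalling 4 rose and 17 fell, with a median log2 difference of -0.41. The receptor's signalling chain Cd79a had 544 and 528 FPKM with anti-IgM and 1784 and 1799 FPKM without, and its partner Cd79b had 642 and 625 FPKM, against 1952 and 1975 FPKM. The kinase Syk fell to 21 and 18.5 FPKM, against 101 and 104 FPKM (-2.33 ± 0.08, adjusted p = 2.66e-08). The kinases Lyn (-1.04) and Btk (-0.72) and the scaffold Bank1, which had 24.4 and 21.5 FPKM, against 133 and 117 FPKM, fell as well. The rises included Pik3ap1, the adaptor BCAP that recruits phosphoinositide 3-kinase, at 119 and 112 FPKM with anti-IgM and 45.1 and 44.9 FPKM without, and the kinase Fyn, at 211 and 209 FPKM, against 84.2 and 86.6 FPKM; the other two were Cr2 (0.47) and Sh3bp5 (0.28). The summed level of the 12 B cell markers, to which Cd79a and Cd79b belong, moved in the same direction, and its part in these falls was not tested.

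Brakes on the receptor fell more often than they rose. Of 25 tested inhibitory receptors and phosphatases 5 rose and 15 fell, with a median log2 difference of -0.47. Siglecg and Cd22, sialic acid-binding receptors that recruit the phosphatase SHP-1, fell to 19.5 and 23.7 FPKM and 20.5 and 19.4 FPKM with anti-IgM, against 128 and 140.1 FPKM and 75.4 and 74.7 FPKM without. The inhibitory Fc receptor Fcgr2b had 47.7 and 44.3 FPKM, against 123 and 121 FPKM (-1.39 ± 0.09), and the lipid phosphatase Inpp5f had 19.2 and 20.2 FPKM, against 46 and 45.5 FPKM. The 5 that rose were the surface proteins Cd72 and Cd5, the phosphatases Ptpn22 (0.56) and Ubash3b (0.83) and the adaptor Sla2 (0.45). Cd72 stood at 449 and 441 FPKM, against 250.4 and 254 FPKM (0.82 ± 0.05, adjusted p = 9.05e-07), and Cd5, low throughout, at 5.62 and 4.51 FPKM, against 1.54 and 1.2 FPKM (1.35 ± 0.27, adjusted p = 0.00194).

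Of 22 tested calcium channels and pumps 5 rose and 7 fell (median -0.27), where 26.9% of all tested genes rose and 23.0% fell. Genes of one kind went opposite ways. Orai1, the pore of the store-operated calcium channel, rose to 56.5 and 56.7 FPKM, against 26.1 and 26.6 FPKM (1.08 ± 0.07, adjusted p = 8.99e-07), and its paralogue Orai2 fell to 3.99 and 6.18 FPKM, against 13 and 12.2 FPKM (-1.18 ± 0.17, adjusted p = 0.00023). Their activator in the endoplasmic reticulum, Stim1, fell to 8.08 and 7.49 FPKM, against 15.4 and 14 FPKM (-0.83 ± 0.13, adjusted p = 0.000394). Lrmp, a membrane protein that binds IP3 receptors, rose to 167 and 168 FPKM, against 63.3 and 66.2 FPKM, and so did Atp2a2, a calcium pump of the endoplasmic reticulum, at 72.6 and 73.8 FPKM, against 38.8 and 36.6 FPKM. The related pump Atp2a3 fell to 29 and 30.5 FPKM, against 58 and 59.5 FPKM (-0.96 ± 0.11, adjusted p = 5.58e-05). The other rises were the plasma membrane calcium pump Atp2b1 (0.92) and the ATP-gated channel P2rx4 (0.43). The IP3 receptors Itpr3 and Itpr2 fell, with log2 differences of -1.43 and -1.14, and so did the calcium-activated potassium channel Kcnn4 (-1.43) and the cation channel Trpv2 (-0.55). Among 18 tested genes of calcineurin and NFAT 3 rose and 7 fell (median -0.16); the falls numbered 4 without the second anti-IgM library and 4 without the first unstimulated library. The catalytic subunits Ppp3ca and Ppp3cc had 16.7 and 19.8 and 22.9 and 25.5 FPKM with anti-IgM, against 43.1 and 41.6 and 56.9 and 56.5 FPKM. Nfatc1, a factor that calcineurin activates, rose to 174 and 189 FPKM, against 121 and 122 FPKM (0.58 ± 0.07, adjusted p = 0.000106), as did Fkbp1a, which encodes the immunophilin FKBP12 (0.85), and Rcan1, a calcineurin inhibitor (0.64).

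Immediate early factors of the EGR and NR4A families rose. They were listed with other early genes, such as Bhlhe40 and Btg2. Of the 16 tested members of this wider list 12 rose and 1 fell, with a median log2 difference of 1.09. Beside Egr2, Egr1 stood at 87.5 and 85.8 FPKM with anti-IgM, against 27.2 and 29.8 FPKM (1.57 ± 0.07, adjusted p = 1.29e-07), and Egr3 at 24.5 and 23 FPKM, against 6.49 and 4.8 FPKM (1.91 ± 0.16). All 3 NR4A orphan receptors rose. Nr4a1, whose product is NUR77, had 284 and 312 FPKM, against 91.8 and 98.5 FPKM (1.64 ± 0.07, adjusted p = 8.87e-08). Nr4a2 had 35.8 and 30.01 FPKM, against 6.76 and 6.69 FPKM (2.13 ± 0.15), and Nr4a3 had 16.5 and 17.3 FPKM, against 5.76 and 4.56 FPKM (1.55 ± 0.13). Bhlhe40, a helix-loop-helix repressor, rose to 74.3 and 75.1 FPKM, against 24.4 and 25.2 FPKM. The member that fell was the antiproliferative gene Btg2, at 68.7 and 69.9 FPKM with anti-IgM and 207 and 211 FPKM without (-1.58 ± 0.07).

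Promoters of 3 of these genes are shown because their level moved together and because they hold motifs of the families discussed. Each runs 5′ to 3′ for 300 bases on the gene's own strand, with 250 bases before the start site and 50 after it, as RefSeq gives it on GRCm38.p6. Capitals mark a CArG box, the site of serum response factor, in Egr2 at chr10:67537619-67537918 (plus strand), and an EGR motif in Nr4a1 at chr15:101266596-101266895 (plus strand) and in Nr4a2 at chr2:57123954-57124253 (minus strand). The second run of capitals in Nr4a1 is an NF-kB motif.
Egr2: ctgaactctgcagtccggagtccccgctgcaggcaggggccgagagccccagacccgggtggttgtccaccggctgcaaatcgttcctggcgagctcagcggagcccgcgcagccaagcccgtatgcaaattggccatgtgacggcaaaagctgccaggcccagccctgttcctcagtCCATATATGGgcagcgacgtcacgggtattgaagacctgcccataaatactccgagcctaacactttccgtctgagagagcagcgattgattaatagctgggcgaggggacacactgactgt
Nr4a1: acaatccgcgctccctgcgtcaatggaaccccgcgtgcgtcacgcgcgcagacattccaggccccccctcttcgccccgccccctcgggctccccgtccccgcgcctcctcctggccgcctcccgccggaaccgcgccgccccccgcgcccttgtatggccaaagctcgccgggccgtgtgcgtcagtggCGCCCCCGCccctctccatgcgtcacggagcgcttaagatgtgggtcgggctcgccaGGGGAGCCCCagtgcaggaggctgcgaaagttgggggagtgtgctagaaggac
Nr4a2: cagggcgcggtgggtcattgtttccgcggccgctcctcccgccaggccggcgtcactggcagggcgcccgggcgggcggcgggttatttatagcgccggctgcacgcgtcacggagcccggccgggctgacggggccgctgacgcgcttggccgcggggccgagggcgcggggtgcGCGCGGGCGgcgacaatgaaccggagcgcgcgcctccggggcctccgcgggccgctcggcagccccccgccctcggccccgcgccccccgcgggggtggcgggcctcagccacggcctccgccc
The CArG box of Egr2 starts 72 bases before the start site, the EGR motifs of Nr4a1 and Nr4a2 start 60 and 74 bases before it, and the NF-kB motif of Nr4a1 starts 3 bases before it.

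Windows of this kind were at hand for 8231 of the tested genes and were searched on both strands for 6 motifs, with any match counted whether or not it overlapped another motif. The EGR motif GCGNGGGCG was found in 5 of the 10 EGR and NR4A list members with a window, and in 10.5% of windows of genes that rose, 10.6% of those that fell and 10.3% of all. A CArG box was found in 2 of the 10, and in 1.20% of all windows. The E-box CACGTG, a motif bound by MYC and MAX among others, was found in 15.6% of 2240 windows of genes that rose, in 8.0% of 1887 windows of genes that fell and in 10.9% of all. The cyclic AMP response element TGACGTCA stood in 4.11%, 2.28% and 3.54% of the same sets, the AP-1 motif TGANTCA in 3.93%, 4.77% and 4.39%, and the NF-kB motif in 9.29%, 12.1% and 10.2%. These shares describe letters in a window and were not tested. Genes that rose were expressed at higher levels than genes that fell, and the part of level in the E-box shares was not tested.

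AP-1 and MAP kinase genes rose in part. Of 15 tested AP-1 and ATF factors 9 rose and 1 fell, with a median log2 difference of 0.70. Atf3 had 28.5 and 23.6 FPKM with anti-IgM and 9.99 and 11.2 FPKM without (1.22 ± 0.12), Mafk had 83.3 and 75.8 FPKM, against 35.1 and 34.5 FPKM, and Mafg had 50.4 and 51.9 FPKM, against 24.2 and 21.7 FPKM. Batf, a factor of B cell activation, rose to 41.1 and 46.9 FPKM, against 23.8 and 23.4 FPKM (0.87 ± 0.13). At 4 h the classical members did not pass the threshold: Fos was at 6.6 and 6.98 FPKM, against 5.86 and 5.47 FPKM (adjusted p = 0.1), and Junb at 69.3 and 68.6 FPKM, against 51 and 67.7 FPKM (adjusted p = 0.102). Jund fell to 16.7 and 19.1 FPKM, against 37.6 and 51.5 FPKM (-1.26 ± 0.14). Of 16 tested brakes of MAP kinase signalling 8 rose and 2 fell (median 0.30). The ERK phosphatases Dusp4 and Dusp2 rose to 38.6 and 39.6 and 299 and 263 FPKM, against 15.1 and 16.6 and 146 and 143 FPKM. The Sprouty gene Spry1 had 11.7 and 15.4 FPKM, against 4.9 and 3.35 FPKM (1.51 ± 0.25), while the Ras GTPase-activating protein Rasal3 (-0.88) and the ERK phosphatase Dusp5 (-0.68) were the 2 that fell.

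NF-kB genes did not move as a block. Of 20 tested subunits and inhibitors 9 rose and 5 fell, with a median of 0.15. Rel, the c-REL subunit that B cell receptor signals raise, had 96.7 and 92.5 FPKM with anti-IgM and 47.2 and 46.6 FPKM without (1.0 ± 0.06, adjusted p = 3.43e-07). The inhibitor Nfkbie rose to 172 and 166 FPKM, against 67.1 and 64.9 FPKM (1.34 ± 0.05), and the ubiquitin-editing inhibitor Tnfaip3 to 37.9 and 34.9 FPKM, against 23.1 and 22.4 FPKM (0.65 ± 0.06). Bcl3, a nuclear IkB protein, fell to 16 and 15 FPKM, against 60.1 and 69.7 FPKM (-1.99 ± 0.08, adjusted p = 6.88e-08), and the ubiquitin ligase Birc3 fell to 55.3 and 55.4 FPKM, against 108 and 107 FPKM. Birc2 (-0.90), the deubiquitinase Cyld (-0.64) and Tnip1 (-0.62) were the other falls.

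Myc, the growth-promoting factor that pairs with MAX, rose. It stood at 284 and 282 FPKM with anti-IgM, against 71 and 71.3 FPKM in unstimulated Trpm5-/- cells, close to 4-fold with replicates almost equal (1.98 ± 0.05, adjusted p = 7.19e-09). It was the single gene of 10 tested in the MYC and MAX network that rose, while 5 fell; 3 rose with quantile normalization and 2 when only the compared libraries were fitted, and the falls numbered 3 without the first anti-IgM library and 3 without the first unstimulated library. Max, the obligate partner, had 28.9 and 31.4 FPKM, against 24.4 and 23.6 FPKM (adjusted p = 0.0994). The MAX-binding repressors Mxd4 and Mxi1 had 3.18 and 4.19 and 4.16 and 4.61 FPKM, against 9.15 and 11.9 and 12.1 and 8.16 FPKM, and Mxd1 (-0.57), Mxd3 (-0.58) and Mlxip (-0.37) also fell. Mxd4 lost its call with a pseudocount of 0.1 FPKM (adjusted p = 0.0517).

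Genes of biosynthesis moved together. All 45 tested ribosome biogenesis genes rose, with a median log2 difference of 1.05, where 26.9% of all tested genes rose. Gnl3, the nucleolar GTPase nucleostemin, had 268 and 266 FPKM with anti-IgM, against 87 and 92.4 FPKM (1.56 ± 0.06). Ncl, which encodes nucleolin, had 391 and 384 FPKM, against 173 and 168 FPKM, Nolc1 had 95.3 and 98.9 FPKM, against 34.9 and 34.3 FPKM, and the snoRNP protein gene Nop58 had 285 and 283 FPKM, against 118 and 114 FPKM. The 2 libraries of each group lay close together for all 4. Of 28 genes of nucleotide and folate-cycle synthesis 23 rose and 2 fell (median 0.82); 1 fell without the second anti-IgM library or without the first unstimulated one. Shmt1, a serine hydroxymethyltransferase, led them at 91.5 and 86.5 FPKM, against 25.6 and 23.5 FPKM (1.82 ± 0.08), with CTP synthase Ctps at 88.2 and 79 FPKM, against 29 and 25.7 FPKM, while its paralogue Ctps2 fell to 16.2 and 17.8 FPKM, against 33.4 and 30.4 FPKM, and Prps2 by a smaller step (-0.29). Of 22 aminoacyl-tRNA synthetase genes 20 rose and 1, Vars, fell (-0.36 ± 0.07; median of the list 0.70). Tars had 170.1 and 165 FPKM, against 81.9 and 78.4 FPKM, and the complex scaffold Aimp2 had 146 and 139 FPKM, against 63.1 and 61.1 FPKM. Of 26 cytosolic and mitochondrial chaperones 22 rose and none fell (median 0.73). The mitochondrial chaperonin Hspd1 had 554 and 533 FPKM, against 226 and 204 FPKM, and Hspa8 had 2278 and 2291 FPKM, against 1203 and 1167 FPKM. These lists hold many highly expressed genes, among which rises made up 51.5%.

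Lists of nutrient supply and metabolism differed in their counts. Of 14 polyamine genes 8 rose and 1 fell (median 0.66; 3 fell with quantile normalization). The fall was Oaz2, an ornithine decarboxylase antizyme (-0.42). Spermidine synthase Srm had 353 and 339 FPKM with anti-IgM and 111 and 117 FPKM without (1.60 ± 0.06), and the rate-limiting enzyme ornithine decarboxylase, Odc1, had 431 and 389.9 FPKM, against 239 and 220.4 FPKM (0.83 ± 0.06). Of 16 amino acid transporters 10 rose and 3 fell (median 0.51). The shared heavy chain Slc3a2 had 219 and 207 FPKM, against 71.3 and 78.4 FPKM, and its light chain Slc7a5, the leucine carrier LAT1, had 61.7 and 74.2 FPKM, against 32 and 28.3 FPKM. Slc43a2 (-1.51), Slc36a4 (-0.81) and the lysosomal arginine sensor Slc38a9 (-0.67) fell. Of 20 glycolysis genes 12 rose and 3 fell (median 0.43). Lactate dehydrogenase Ldha rose to 1767 and 1729 FPKM, against 781 and 761 FPKM (1.18 ± 0.06), and the lactate transporter Slc16a1 to 41.5 and 40.3 FPKM, against 14.8 and 15.3 FPKM. Aldoc, the brain-type aldolase, fell to 1.78 and 0.456 FPKM, against 4.44 and 3.62 FPKM, with hexokinase 1, Hk1 (-0.70), and Pdk1, which restrains pyruvate dehydrogenase (-0.65). Of 23 sterol and fatty acid genes 17 rose and 1 fell (median 0.54; 3 fell with quantile normalization), among them Fasn, fatty acid synthase, at 46.7 and 46.6 FPKM, against 20.4 and 21.7 FPKM. The desaturase Scd2 fell (-0.65). Of 24 genes of folding in the endoplasmic reticulum 15 rose and 3 fell (median 0.47). The chaperone BiP, Hspa5, had 939 and 951 FPKM, against 442 and 460.3 FPKM, while the stress-sensing kinase Eif2ak3 fell to 27.9 and 25.4 FPKM, against 68 and 63.4 FPKM, with smaller falls of Pdia4 (-0.29) and Syvn1 (-0.30). Of 32 oxidative phosphorylation genes 22 rose and 1, Sdha, fell (median 0.29), whereas 9 rose and 8 fell with quantile normalization, so the balance of this list depends on the scaling. Of 30 lysosome genes 14 rose and 8 fell (median 0.26, the same as that of the ubiquitously expressed genes described next). Hexa, a subunit of lysosomal beta-hexosaminidase, rose to 118 and 125 FPKM, against 57.9 and 64.9 FPKM.

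Of 20 ubiquitously expressed genes listed as a reference 10 rose and 2, Actb and Sdha, fell (median 0.26). The falls numbered 6 with quantile normalization and 1 when any single Trpm5-/- library of the comparison was left out. Gapdh, for instance, had 679 and 669 FPKM with anti-IgM and 430.04 and 439 FPKM without (0.63 ± 0.06). The listed RNA-quality transcripts had 5 tested members, of which 1, the nuclear RNA Malat1, fell to 155 and 158 FPKM, against 239 and 246 FPKM.

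**Figure D2:**
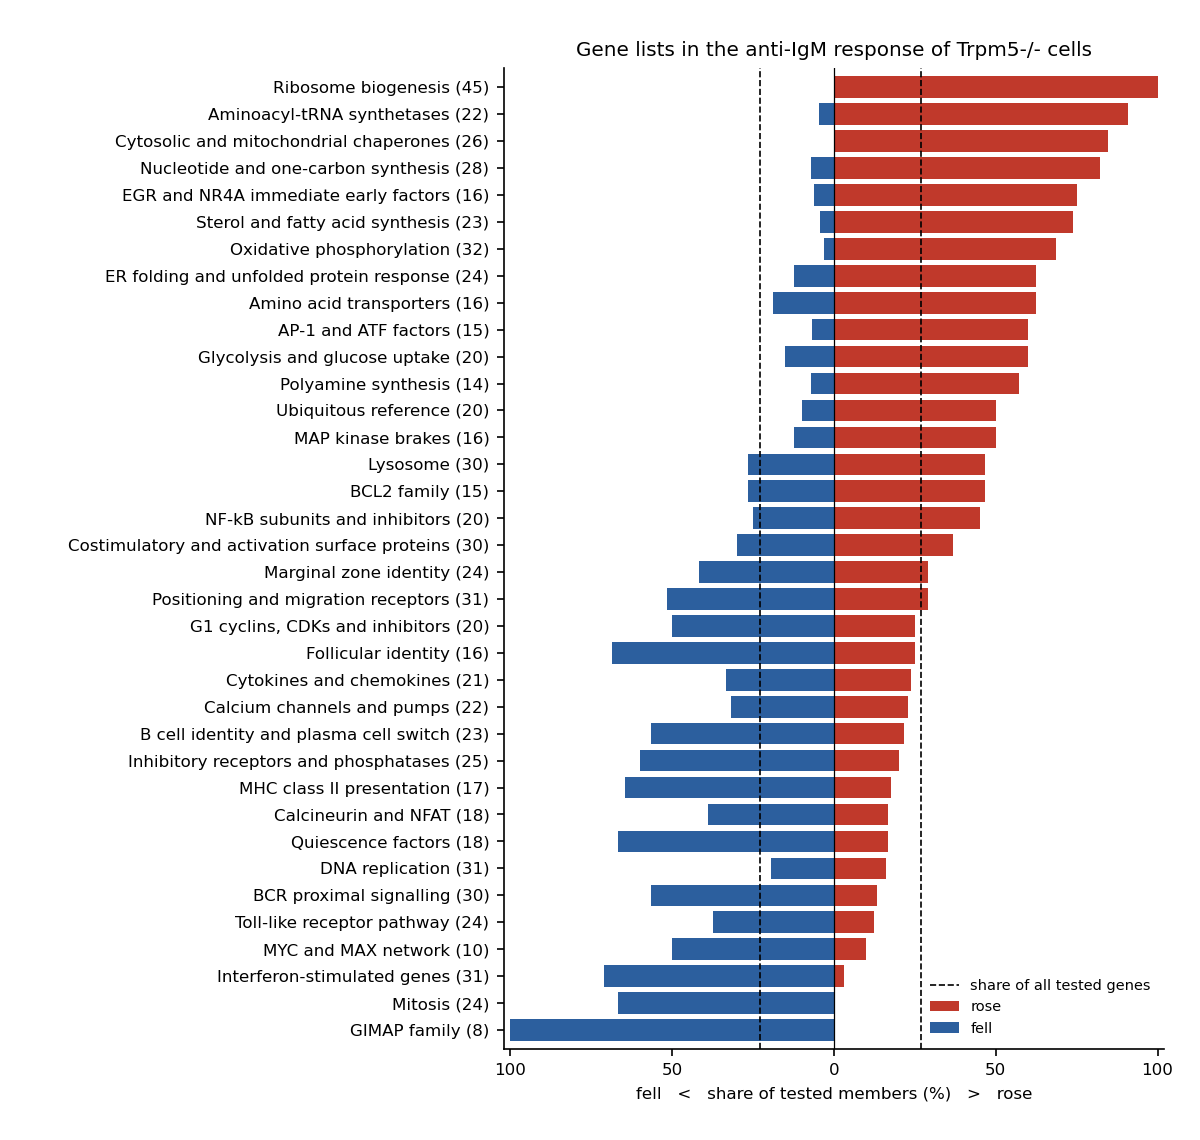
Share of tested members (in %) of each gene list that rose (red, right) or fell (blue, left) with anti-IgM in Trpm5-/- cells, with the number of tested members in parentheses. Dashed lines mark the shares over all tested genes, 26.9% for rises and 23.0% for falls; ribosome biogenesis lies at the top with all 45 members raised and the GIMAP family at the bottom with all 8 lowered.

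Genes of cell division fell more than they rose. Of 24 mitosis genes none rose and 16 fell, with a median of -0.58, where 23.0% of all tested genes fell. Ccnb2, a mitotic cyclin, had 10.3 and 10.1 FPKM with anti-IgM and 25.6 and 23.1 FPKM without (-1.18 ± 0.14), Top2a, topoisomerase II alpha, had 17.5 and 14.4 FPKM, against 25.1 and 24.2 FPKM, and the proliferation marker Mki67 had 2.73 and 2.92 FPKM, against 6.88 and 7.01 FPKM. Of 31 DNA replication genes 5 rose and 6 fell (median -0.03), shares under or near the background. Pcna, the sliding clamp, rose to 278 and 268 FPKM, against 166 and 157 FPKM, and the helicase subunit Mcm2 to 37.4 and 43.9 FPKM, against 28.1 and 30.3 FPKM, while the ribonucleotide reductase subunit Rrm2 fell to 20.4 and 20.8 FPKM, against 43.4 and 44.4 FPKM. Mcm6 (0.28), Pold2 (0.72) and Fen1 (0.32) were the other rises. Of 20 regulators of the G1 phase 5 rose and 10 fell (median -0.25). The kinases Cdk4 and Cdk6 rose to 359 and 368 and 24.1 and 28.8 FPKM, against 177 and 177 and 8.99 and 8.65 FPKM, with the phosphatase Cdc25a (0.76), E2f4 (0.52) and Ccnd2. The falls held inhibitors and drivers of the cycle. Among inhibitors Rbl2, the pocket protein p130, fell to 6.49 and 7.66 FPKM, against 23.7 and 22.7 FPKM, the CDK inhibitor Cdkn2d to 6.22 and 6.77 FPKM, against 25.4 and 22.5 FPKM, and the CDK inhibitor Cdkn1b to 3.41 and 2.92 FPKM, against 7.73 and 7.43 FPKM, whereas the inhibitors Cdkn1a (-0.13, adjusted p = 0.539) and Cdkn1c (0.12, adjusted p = 0.666) were not called. Among drivers the kinase Cdk2 (-0.34), cyclin E1, Ccne1 (-0.79), and the transcription factor E2f2 (-1.70) fell. The D-type cyclins divided. Ccnd3 fell to 19.6 and 15.6 FPKM, against 38.2 and 41.8 FPKM (-1.15 ± 0.15), and Ccnd2 had 19.1 and 18.4 FPKM, against 16.3 and 13.4 FPKM (0.32 ± 0.11, adjusted p = 0.0385), a call that was lost without the second unstimulated library (adjusted p = 0.258) and in 4 other alternatives.

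Survival genes of the BCL2 family changed in both directions, 7 rising and 4 falling of 15 tested (median 0.14). Bcl2a1b and Bcl2a1d, near-identical copies of the antiapoptotic gene A1 between which reads can be split, had 373 and 369.7 and 93.9 and 88.8 FPKM with anti-IgM, against 137 and 146 and 32.4 and 33.1 FPKM without. Bcl2l1, which encodes BCL-XL, rose to 17.8 and 17.6 FPKM, against 8.13 and 8.46 FPKM (1.01 ± 0.06). The antiapoptotic genes Bcl2 and Mcl1 fell to 4.93 and 5.45 and 121 and 129 FPKM, against 12.7 and 12.2 and 186 and 186 FPKM, and the death-promoting genes Bad (-0.85) and Bmf (-1.05) fell too. Death-promoting genes were also among those that rose, including Bax and Bcl2l11, the BH3-only gene BIM, with log2 differences of 0.76 and 0.70.

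Among 21 tested cytokine and chemokine genes 5 rose and 7 fell (median -0.43), where 26.9% of all tested genes rose and 23.0% fell. The chemokines Ccl4 and Ccl3 rose: Ccl4 had 689.98 and 659.8 FPKM with anti-IgM and 246 and 211 FPKM without (1.56 ± 0.07, adjusted p = 1.10e-07), and Ccl3 had 145 and 134 FPKM, against 47.5 and 51.4 FPKM (1.48 ± 0.07). Mif (1.26), Csf1 (1.09) and Tnf (0.64) were the other rises; the call of Tnf was lost in 4 alternatives. Il16 fell to 24.3 and 20.2 FPKM, against 96.8 and 101 FPKM (-2.11 ± 0.09). The inflammatory cytokine Il1b fell to 0.492 and 1.01 FPKM, against 6.0 and 6.75 FPKM (-2.09 ± 0.16), and Il6, close to the minimum level, was at 0.376 and 1.18 FPKM, against 2.02 and 2.28 FPKM. Il10, the cytokine of regulatory B cells, had 9.13 and 7.33 FPKM, against 9.53 and 9.26 FPKM (adjusted p = 0.385).

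Surface proteins of activation and costimulation rose in 11 and fell in 9 of 30 tested genes (median -0.19). Cd83, an early activation marker, stood at 1066 and 995 FPKM with anti-IgM, against 362 and 354 FPKM (1.52 ± 0.06, adjusted p = 5.13e-08). The transferrin receptor Tfrc had 74.9 and 69.3 FPKM, against 25.3 and 25.6 FPKM, Cd69 had 159 and 155 FPKM, against 95.1 and 99 FPKM, and the CD28 ligand Cd86 had 273 and 248 FPKM, against 172 and 163 FPKM. Il2ra, the alpha chain of the IL-2 receptor, rose to 16.8 and 17.7 FPKM, against 6.99 and 6.63 FPKM. The largest fall of this list was that of Icosl, described above (-3.65). Among the smaller falls, Cd40 had 63.3 and 56.8 FPKM, against 84.4 and 78.2 FPKM (-0.43). The adhesion molecule Icam1 had 29.3 and 32.4 FPKM, against 42.4 and 40.8 FPKM (-0.42). Of 17 genes of MHC class II presentation 3 rose and 11 fell (median -0.57). The peptide-loading genes H2-DMa and H2-DMb2 and the inhibitor of loading H2-Ob had log2 differences of -1.44, -1.23 and -1.14, and Ifi30, a thiol reductase of antigen processing, fell to 46.1 and 44.4 FPKM, against 154 and 145 FPKM. The class II chain H2-Aa itself rose to 3703 and 3496 FPKM, against 2434 and 2404 FPKM (0.57 ± 0.07), with H2-Eb1 (0.48) and H2-Ab1 (0.18). The call of H2-Ab1 was lost in 5 alternatives and its direction turned with quantile normalization (-0.024).

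The list of positioning and migration genes holds receptors, integrin chains and RGS regulators. Of its 31 tested genes 9 rose and 16 fell (median -0.26), where 26.9% of all tested genes rose and 23.0% fell. The falls included that of Itgb7, described above (-3.15), and most of the 16 are not named here. S1pr3, a receptor for sphingosine 1-phosphate and a marginal zone gene, had 67.7 and 65.1 FPKM with anti-IgM and 13.7 and 17.2 FPKM without (2.04 ± 0.14, adjusted p = 1.34e-06). S1pr1, the sphingosine 1-phosphate receptor that holds these cells in the marginal zone, had 113 and 119 FPKM, against 167 and 170.4 FPKM (-0.54 ± 0.15, adjusted p = 0.0115), a call lost without the first anti-IgM library (adjusted p = 0.063) and without the second unstimulated library (0.052). Gpr183, the oxysterol receptor EBI2 that directs cells to the outer follicle, rose to 143 and 135 FPKM, against 56.5 and 56.3 FPKM. Cxcr4 was at 43.5 and 48 FPKM, against 46.2 and 42.7 FPKM (adjusted p = 0.799).

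Genes of quiescence and of B cell identity were lowered. Of 18 quiescence factors 3 rose and 12 fell (median -0.68); the rises were Klf9 (0.96), Tob2 (0.68) and Btg1 (0.24, turning to -0.058 with quantile normalization). Klf2, a factor that keeps lymphocytes resting and controls homing receptors, fell to 17.8 and 21.1 FPKM, against 114 and 112 FPKM (-2.48 ± 0.12, adjusted p = 1.37e-07). Ets1 had 49.9 and 52.5 FPKM, against 235 and 232 FPKM (-2.17 ± 0.07), the forkhead factor Foxo1 had 25.5 and 24.2 FPKM, against 57.4 and 58.3 FPKM, and Txnip, an inhibitor of glucose uptake, had 29.2 and 28.9 FPKM, against 69.8 and 71.3 FPKM. In each of the 4 genes both stimulated libraries lay well below both unstimulated ones. Of 23 genes of B cell identity and the plasma cell switch 5 rose and 13 fell (median -0.79). The inhibitor of E proteins Id3 fell to 79 and 85.2 FPKM, against 299 and 308 FPKM, and Pax5, the factor that maintains the B lineage, to 2.97 and 2.6 FPKM, against 7.21 and 8.63 FPKM. Irf4, a factor of activated B cells and plasma cells, rose to 147 and 138 FPKM, against 51.4 and 47.8 FPKM (1.5 ± 0.06, adjusted p = 8.87e-08), with Irf8 (0.50), Id2 (0.48), Xbp1 (0.42) and Ebf1 (0.27). Bcl6, the germinal centre repressor, had 7.87 and 6.7 FPKM, against 14.2 and 14.8 FPKM, and Bach2 18.9 and 21.5 FPKM, against 23 and 21.7 FPKM (adjusted p = 0.292). Of the 12 markers shared by B cells 2, Ebf1 and Fcmr, rose and 9 fell (median -1.34), with 1 rise left without the second anti-IgM library or without either unstimulated library and none with quantile normalization; Ms4a1, the gene of CD20, had 212 and 207 FPKM, against 493 and 475 FPKM.

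Marginal zone genes were set against all tested genes, of which 26.9% rose and 23.0% fell. Of 24 tested 7 rose and 10 fell; the rises numbered 4 without the second anti-IgM library and 4 without the first unstimulated library. Their median of -0.02 turned to 0.04 with quantile normalization, to 0.08 without the second anti-IgM library and to 0.01 without the second unstimulated library. Notch2, the receptor on which this cell fate depends, fell to 6.29 and 6.46 FPKM, against 24.7 and 24.7 FPKM (-1.80 ± 0.09). Cd1d1, the lipid-presenting molecule high on these cells, fell to 2.09 and 3.49 FPKM, against 13 and 15.3 FPKM (-2.02 ± 0.20), and the tetraspanin Cd9 to 374 and 388 FPKM, against 469.9 and 472 FPKM. Cr2, which encodes CD21, rose to 51.6 and 52.5 FPKM, against 35.1 and 39.6 FPKM (0.47 ± 0.07). Of 16 follicular genes 4 rose and 11 fell (median -0.57; 2 rose with quantile normalization). The rises were Gpr183, Satb1 (1.07), Ccr7 (0.47) and Fcmr (0.25). Cd55, which protects cells from complement, fell to 25.1 and 23.4 FPKM, against 149 and 144 FPKM (-2.55 ± 0.06), and Fcer2a, the low-affinity IgE receptor CD23, to 59.9 and 53.4 FPKM, against 83.5 and 85.7 FPKM.

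All 8 GIMAP genes, GTPases of lymphocyte survival, fell, with a median log2 difference of -1.26. Gimap3 had 27.6 and 29.5 FPKM with anti-IgM and 117 and 119 FPKM without, and Gimap6, the most abundant of the 4 named by rule, had 189 and 173 FPKM, against 354 and 339 FPKM. Of 31 interferon-stimulated genes 1, Bst2, rose and 22 fell (median -0.77). The falls numbered 14 without the second anti-IgM library and 11 without the first unstimulated library, and the rise was lost with quantile normalization, without the second anti-IgM library and without either unstimulated library. Gbp3, a guanylate-binding protein, had 9.75 and 9.66 FPKM, against 49.5 and 46.1 FPKM (-2.19 ± 0.15), and Ifit3, which has a near-identical copy, had 4.86 and 3.77 FPKM, against 18.5 and 15.4 FPKM (-1.76 ± 0.22). The signalling factor Stat2 had 12.3 and 10.7 FPKM, against 27.6 and 32.2 FPKM, and the RNA sensor RIG-I, Ddx58, had 5.09 and 4.42 FPKM, against 16.2 and 16.3 FPKM. Of 24 genes of the Toll-like receptor pathway 3 rose and 9 fell (median -0.15). Unc93b1, which carries endosomal receptors, fell to 162 and 162 FPKM, against 313 and 333 FPKM, and Tlr1 to 5.41 and 4.53 FPKM, against 16.1 and 21.8 FPKM, while Cd180, the receptor homologue RP105, rose to 10.8 and 11.1 FPKM, against 4.94 and 4.87 FPKM, with Tlr7 (0.76) and Myd88 (0.38).

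Markers of erythroid cells, dendritic cells and macrophages summed to higher levels than those of T cells and NK cells, and some changed. The 7 tested erythroid markers had 4 falls, and the list summed to 248.8 and 307.6 FPKM with anti-IgM, against 472.4 and 510.3 FPKM without. Alas2, the erythroid enzyme of haem synthesis, had 13.1 and 12.6 FPKM, against 21 and 20.01 FPKM, and the anion exchanger Slc4a1 had 6.75 and 5.6 FPKM, against 10.1 and 10.9 FPKM. The globin gene Hba-a1, which has a near-identical copy, stood at 166 and 16 FPKM, against 201 and 344 FPKM; its call was lost in 6 alternatives, and its log2 difference was -0.66 in place of -2.31 without the second anti-IgM library. Of 4 tested dendritic cell markers 3 rose, Zbtb46, Bst2 and Ccr9, and the list summed to 68.7 and 70.0 FPKM, against 50.2 and 49.6 FPKM, with Batf3 and Cd209a listed at 0 in all 4 libraries. Of 7 tested macrophage markers 1, Hmox1, rose and 1, Adgre1, fell, with 2 falls without the first unstimulated library and no rise with quantile normalization; the list summed to 160 and 170 FPKM, against 131 and 129 FPKM. The calls of Bst2, Ccr9 and Hmox1 were each lost in at least 1 alternative. The single stromal or endothelial marker tested, Pecam1, an adhesion molecule also found on B cells, fell to 4.15 and 3.6 FPKM, against 32.3 and 35.9 FPKM (-2.85 ± 0.11), and Col1a1, Col1a2, Pdgfra, Pdgfrb and Madcam1 were listed at 0. The part of these markers in the changes described was not tested.

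**Figure D3:**
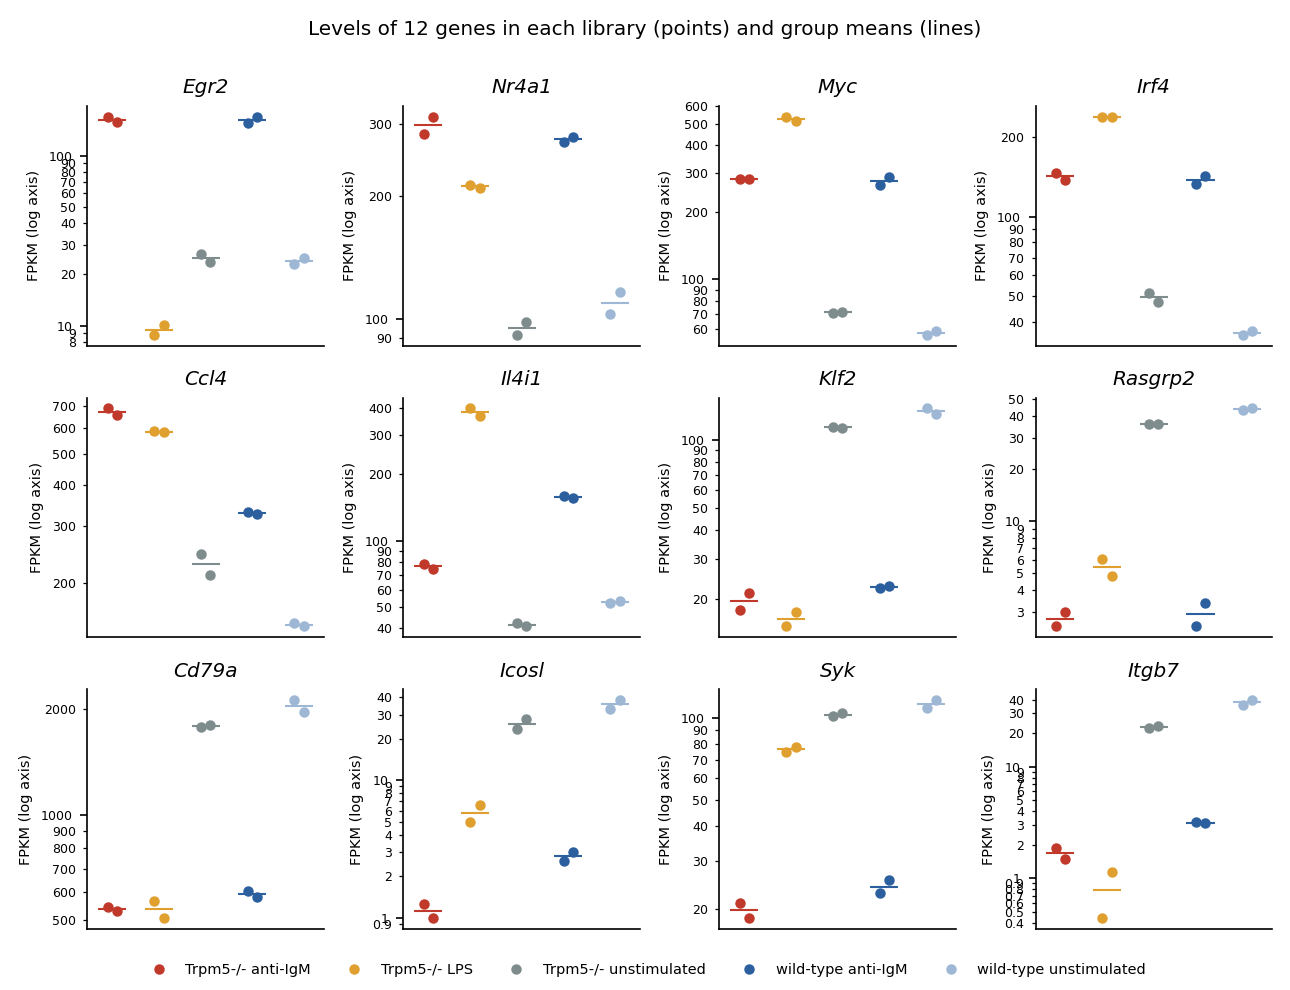
FPKM (log axis) of 12 genes in single libraries (points), with the mean of 2 libraries as a line, for Trpm5-/- cells with anti-IgM, LPS or no stimulus and for wild-type cells with anti-IgM or no stimulus. Egr2 stands at 157 to 169 FPKM in Trpm5-/- anti-IgM libraries and at 8.85 to 10.1 FPKM in Trpm5-/- LPS libraries, and Il4i1 at 74.7 to 78.0 FPKM in Trpm5-/- anti-IgM libraries, below both wild-type anti-IgM libraries.

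In wild-type cells the same stimulus changed 5246 genes, 48.6% of those tested. The calls shared by both genotypes numbered 4328, which is 80.4% of the calls in Trpm5-/- cells and 82.5% of those in wild-type cells, and 4323 of them had the same direction. The log2 differences of Trpm5-/- and wild-type cells correlated across the tested genes at r = 0.73, as a description over genes, which are not independent replicates. The 5 genes called in opposite directions, named after their values were seen, were Abcd3, Alpl, Ptpn6, Gm38431 and Hist2h2bb. Abcd3, a peroxisomal transporter, had 9.49 and 10.5 FPKM with anti-IgM and 14.3 and 14.2 FPKM without in Trpm5-/- cells, and 12.5 and 11.5 FPKM and 9.32 and 10.1 FPKM in wild-type cells. Alkaline phosphatase Alpl had 32.4 and 32.5 FPKM with anti-IgM and 39.7 and 41.5 FPKM without in Trpm5-/- cells, and 21 and 18.9 FPKM and 16.9 and 16.4 FPKM in wild-type cells. Ptpn6, which encodes SHP-1, had log2 differences of -0.15 in Trpm5-/- cells and 0.22 in wild-type cells. The adjusted interaction p of the 5 genes ranged between 0.17 and 0.381, and the calls of Ptpn6, Gm38431 and Hist2h2bb in Trpm5-/- cells were lost in several alternatives.

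The test of the difference between the responses, an interaction term of genotype with anti-IgM, called 3 of 10797 genes (0.0278%), with 857 genes (7.94%) at an unadjusted p under 0.05. The median interaction over all tested genes was -0.04. One of the 3 was Il4i1, which encodes a secreted L-amino acid oxidase. Il4i1 stood at 78 and 74.7 FPKM with anti-IgM and 42.3 and 40.8 FPKM without in Trpm5-/- cells, and at 158 and 156 FPKM and 52.1 and 53.1 FPKM in wild-type cells. It rose in both genotypes, by 0.86 on the log2 scale in Trpm5-/- cells and by 1.56 in wild-type cells, an interaction of -0.70 ± 0.08 (adjusted p = 0.0136). Its call held under the 8 other settings of the processing and was lost in 5 of the 8 fits that left out 1 library (adjusted p of 0.0668 to 0.133). The other two were short RNA genes with values of 0; such a 0 can be a failed estimate, which was not tested, so these values may not be measurements of absence. Mir18, a microRNA gene, was listed at 0 in all Trpm5-/- libraries and in the unstimulated wild-type libraries, and at 235 and 577 FPKM in wild-type cells given anti-IgM. Snora31, a small nucleolar RNA gene, had 209 and 328 FPKM in Trpm5-/- cells given anti-IgM and was listed at 0 in both unstimulated Trpm5-/- libraries, while wild-type cells had 156 and 127 FPKM and 103 and 111 FPKM. Of 111 small RNA genes tested 14 were called in the Trpm5-/- response, where 49.9% of all tested genes were called. Past 4-fold were 8 of the 14, which are counted among the 18 rises and 85 falls past 4-fold over all tested genes.

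Among genes with names and higher levels, the smallest interaction p-values after Il4i1 with a log2 difference lower in Trpm5-/- cells than in wild-type cells belonged to Napsa, Shmt2, Tmem123 and Phgdh, none of which was called in the interaction. Shmt2, the mitochondrial serine hydroxymethyltransferase, rose to 221 and 220.1 FPKM, against 117 and 119 FPKM, in Trpm5-/- cells, and to 216 and 221 FPKM, against 86.6 and 86 FPKM, in wild-type cells (-0.43 ± 0.06, adjusted p = 0.0655). Phgdh, the first enzyme of serine synthesis, had log2 differences of 0.46 in Trpm5-/- cells and 0.85 in wild-type cells (-0.39 ± 0.07, adjusted p = 0.17). The aspartic protease Napsa fell to 124 and 117 FPKM, against 198 and 219 FPKM, in Trpm5-/- cells, where wild-type cells had 264 and 264 FPKM and 301 and 298 FPKM (-0.60 ± 0.08, adjusted p = 0.0655). Tmem123, which encodes the membrane protein porimin, had an interaction of -0.48 ± 0.07. In the other direction stood Rasgef1b (0.34 ± 0.07), the cullin adaptor Kctd13 (0.57 ± 0.11), the SOCS-box gene Wsb1 (0.36 ± 0.07), the RNA-binding protein gene Slirp (0.48 ± 0.10) and the lysozyme gene Lyz2 (1.10 ± 0.23), with adjusted p-values between 0.211 and 0.266. Lyz2, a marker of macrophages, had 9.34 and 13.1 FPKM with anti-IgM and 10.7 and 9.71 FPKM without in Trpm5-/- cells, and 5.51 and 5.22 FPKM and 13.5 and 10.1 FPKM in wild-type cells.

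Gene lists in wild-type cells are set beside those of Trpm5-/- cells, first 5 with close medians and then 4 of those with larger gaps. Ribosome biogenesis had 45 rises and a median of 1.05 in Trpm5-/- cells and 45 rises and a median of 1.09 in wild-type cells. The EGR and NR4A list, which also holds other early genes, had 12 rises (1.09) and 11 rises (1.01). Mitosis genes had 16 falls (-0.58) in Trpm5-/- cells and 13 (-0.51) in wild-type cells, and interferon-stimulated genes had 22 (-0.77) and 19 (-0.69). Nucleotide and folate-cycle genes had the same counts in both, 23 rises and 2 falls, with medians of 0.82 and 0.92. Costimulatory and activation surface proteins had medians of opposite sign, -0.19 in Trpm5-/- cells (11 rises and 9 falls) and 0.18 in wild-type cells (11 and 8). Genes of B cell identity had medians of -0.79 and -0.42 with 13 and 14 falls, sterol and fatty acid genes 0.54 and 0.80 with 17 and 18 rises, and aminoacyl-tRNA synthetases 0.70 and 0.87 with 20 rises in each genotype. An unadjusted interaction p under 0.05, which 7.94% of all tested genes had, was found for 6 of 45 ribosome biogenesis genes. Members of the EGR and NR4A list had it in 4 of 16 cases, mitosis genes in 3 of 24, interferon-stimulated genes in 1 of 31 and nucleotide genes in 10 of 28. It was found for 9 of 30 surface proteins, 5 of 23 identity genes, 7 of 23 sterol genes and 6 of 22 synthetases. The interaction was below 0 for 56.9% of all tested genes, and for 21 of the 22 synthetases. It was below 0 for 22 of 28 nucleotide genes, 18 of 23 sterol genes and 33 of 45 ribosome biogenesis genes. Interferon-stimulated genes had 21 of 31 below 0, surface proteins 20 of 30, mitosis genes 16 of 24 and identity genes 15 of 23. The EGR and NR4A list had 7 of 16. Outside the 9 lists, folding genes of the endoplasmic reticulum had 22 of 24 and AP-1 and ATF factors 3 of 15. No member of these 9 lists was called in the interaction, and the lists were chosen after their values were seen. Genes of a list share the same libraries and are not independent replicates, so these counts only describe genes. All 4 lists with larger gaps had the lower median in Trpm5-/- cells. Some lists outside the 9 had gaps the other way. Polyamine genes had medians of 0.66 in Trpm5-/- cells and 0.48 in wild-type cells. Inhibitory receptors and phosphatases had -0.47 and -0.70, and quiescence factors had -0.68 and -0.89.

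**Figure D4:**
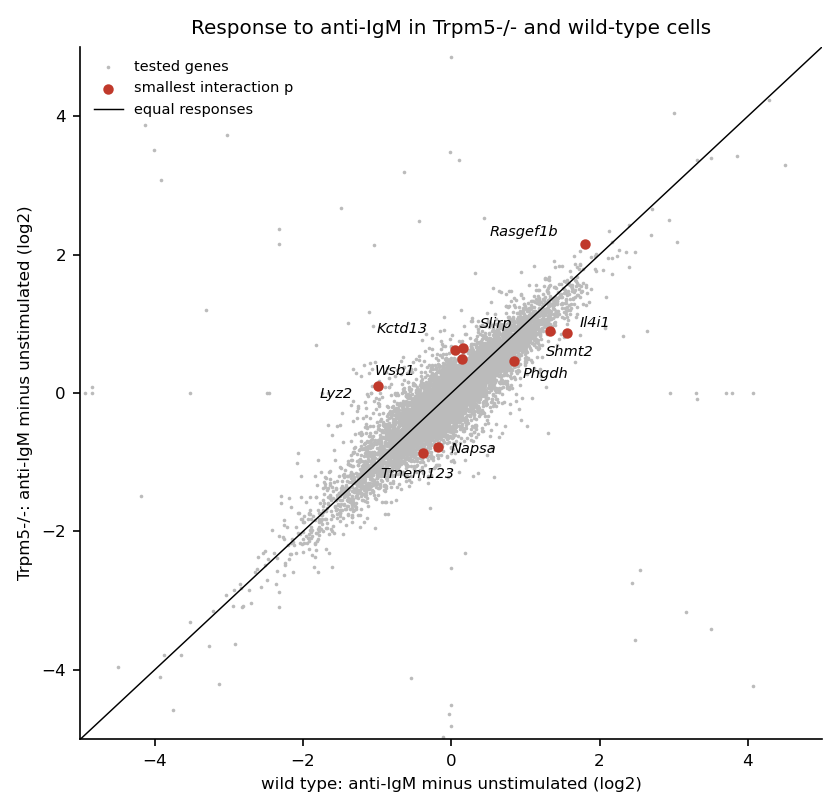
Log2 difference between anti-IgM and unstimulated cells in Trpm5-/- cells (vertical axis) against the same in wild-type cells (horizontal axis) for 10773 tested genes; 24 genes lie outside the axes, which end at 5. The line marks equal responses, and red points are the 10 named genes with the smallest interaction p, of which Il4i1, below the line, is the one called.

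LPS, which acts through TLR4, was the other stimulus given to Trpm5-/- cells, at the same mass concentration and time. Between anti-IgM and LPS 5599 genes differed (51.9% of tested genes). The anti-IgM libraries enter both this difference and the response, so values are set side by side without an overlap. Several genes that rose with anti-IgM stood lower after LPS than in unstimulated cells. Egr2 had 169 and 157 FPKM with anti-IgM, 8.85 and 10.1 FPKM with LPS and 26.5 and 23.6 FPKM without stimulus, and its difference between the stimuli was 3.97 ± 0.11 on the log2 scale (adjusted p = 2.72e-09). Spp1 had 39.7 and 36.2 FPKM with anti-IgM and 0.649 and 1.04 FPKM with LPS (4.41 ± 0.17), S1pr3 had 67.7 and 65.1 and 4.79 and 5.45 FPKM (3.46 ± 0.14), and Gfi1 had 34.6 and 35.2 and 2.37 and 1.61 FPKM (3.60 ± 0.17). Myc was higher with LPS: it had 284 and 282 FPKM with anti-IgM and 539 and 516 FPKM with LPS (-0.90 ± 0.05, adjusted p = 3.97e-07). Syk, lowered by anti-IgM, had 21 and 18.5 FPKM with anti-IgM and 75 and 78.1 FPKM with LPS, a difference of -1.91 ± 0.08. A further 4 genes, chosen after their values were seen, were higher with LPS. Il6 had 0.376 and 1.18 FPKM with anti-IgM and 94.7 and 83 FPKM with LPS, Il1b had 0.492 and 1.01 and 128 and 115 FPKM, Bcl2l1 had 17.8 and 17.6 and 204 and 206 FPKM (-3.46 ± 0.06), and Ccnd2 had 19.1 and 18.4 and 165 and 153 FPKM (-3.02 ± 0.11). Hepacam2, lowered by anti-IgM, had 1.3 and 1.66 FPKM with anti-IgM and 1.31 and 0.562 FPKM with LPS (0.38 ± 0.22, adjusted p = 0.172), so no difference between the stimuli was called for it.

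Among 274 called genes named here, 29 lost the call in at least 1 alternative. Beside those already marked, these were Actb, Bad, Ccne1, Ccr7, Cdk2, Ebf1, Fcmr, Mcm6, Mxd1, Mxd3, Prps2, Ptpn22, Sh3bp5, Sla2, Slc36a4 and Syvn1. The minimum level leaves out genes close to it. Just inside were Mfsd2b and Catsper2, whose second-highest library had 1.0 and 1.002 FPKM, and just outside were Klf4 and Ppp1r9b, with 0.9986 and 0.9974 FPKM.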

How the data were processed

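Full-length cDNA libraries were made from total RNA of marginal zone B cells with a SMART-Seq HT kit and a Nextera library kit, per the labels' protocols. The authors deposited FPKM per gene symbol for each of the 12 libraries. Cufflinks 2.2.1, TopHat2 2.0.13, SAMtools 0.1.19, Bowtie2 2.2.3 and the mm10 build are listed in the submitters' processing notes, without settings. Read counts were not analysed here, so a count model was not used.

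Symbols that reached 1 FPKM in 2 or more libraries were kept. log2(FPKM + 1) was fitted with limma 3.58.1 (R 4.3.3) as means of 6 groups over all 12 libraries (6 residual degrees of freedom, empirical Bayes with a mean-variance trend). Tests were 2-sided, with Benjamini-Hochberg adjustment over all 10797 genes and calls under 0.05. A fold change is on the log2(FPKM + 1) scale and understates the change of low genes. The script was tested on simulated data. Alternatives were a pseudocount of 0.1 FPKM, no filter, a mean of at least 5 FPKM, quantile normalization, median scaling, robust empirical Bayes, a replicate block, the compared libraries alone, and each library left out in turn.

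The genes and the 46 gene lists were chosen with earlier results of these data known, and each list is described by counts and a median without a test. The rule for named genes took Trpm5, the 10 called genes that rose most and the 10 that fell most with a mean of at least 5 FPKM in the higher group, up to 4 called members of smallest p in each list, and the 5 genes of smallest interaction p in each direction. Predicted gene models, receptor segments and small RNA genes were left out of the largest changes and of the 5 per direction. Some genes that the rule takes are not reported here. Further list members were named after their values were seen. Coordinates are from GENCODE M21, and promoters are from RefSeq on GRCm38.p6.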

Additional observations from a re-analysis of the deposited data

Results flagged for a closer look

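The response to anti-IgM differed between Trpm5-/- and wild-type cells, by the interaction test itself, for 3 genes. Il4i1 had an interaction of -0.699 on the log2 scale (limma adjusted p = 0.0136), with both Trpm5-/- anti-IgM libraries below both wild-type anti-IgM libraries. Mir18 had a fitted interaction of -8.53 (adjusted p = 3.66e-05); it was listed at 0 in the 4 Trpm5-/- libraries compared and in both unstimulated wild-type libraries. Snora31 had a fitted interaction of 7.64 (adjusted p = 0.00153) and was listed at 0 in both unstimulated Trpm5-/- libraries. A 0 listed for a short RNA gene can be a failed estimate, which was not tested, so the zeros of Mir18 and Snora31 may not be measurements. Their fitted values depend on the pseudocount and are no bound on a fold change.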

How the results depend on the processing

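The count of genes called in the anti-IgM response of Trpm5-/- cells, 5386, lay between 5104 and 5501 under the settings that kept all tested genes or the unfiltered table with all 12 libraries, at 4906 with the compared libraries alone, at 4588 with a mean of at least 5 FPKM, and between 4377 and 4446 with 1 compared library left out. Rises outnumbered falls in each of these fits. Genes called with a change of at least 2-fold numbered 1112 as reported, 1451 with a pseudocount of 0.1 FPKM and 844 with a mean of at least 5 FPKM. They numbered between 1092 and 1114 in the other fits that left no compared library out. Between anti-IgM and LPS the count lay between 4528 and 5277 in the alternatives run. The 3 interaction calls became 9 with no filter, 5 with the compared libraries alone and 5 with robust empirical Bayes, and 2 to 7 with 1 library left out; the cause was not tested. Of 274 named genes called, 245 kept the call in every alternative run on them and 29 lost it in at least 1. With quantile normalization 2 changed sign, H2-Ab1 (-0.024) and Btg1 (-0.058), neither called there. Snora31 lost its interaction call with robust empirical Bayes (adjusted p = 0.111).

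Same-numbered libraries deviated together by correlations of -0.172 to 0.199 across the pairs of groups (0.086 between Trpm5-/- anti-IgM and unstimulated), so the numbers were not taken as pairing the samples. With a replicate block 5410 genes were called in the response and 3 in the interaction.

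With 2 libraries a group, the precision rests on a spread shared over 6 groups, and an uncalled gene is not shown to be level. Depth is known only relative to one library, so counting error cannot be given. Values under about 1 FPKM were left out or compressed by the pseudocount.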
